A study of Homo sapiens with 6 samples.

Results

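Transcripts of 10 genes of the RB-E2F switch were compared between OVCAR5 cells and their prexasertib-resistant derivative OVCAR5R. The genes were taken by symbol as members of these families, with earlier results of these libraries known. They were the activator E2Fs E2F1, E2F2, and E2F3, the repressor E2Fs E2F4, E2F7, and E2F8, the pocket protein genes RB1, RBL1, and RBL2, and the dimerization partner gene TFDP1. All 10 were found among the 12308 rows of the deposited table, and all 10 passed the filter on low values that left 11766 genes for testing. None of the 10 genes had an adjusted p under 0.05 between the cell lines (limma). RBL2 was the only gene whose libraries did not overlap between the cell lines, and it was the lower one in OVCAR5R.

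E2F proteins bind DNA as heterodimers with a DP protein such as the product of TFDP1 and control the genes that a cell needs to enter and complete S phase. In quiescent and early G1 cells the pocket proteins RB, p107, and p130 hold E2Fs inactive and bring corepressors to their target genes. CDK4 and CDK6 with D-type cyclins, and then CDK2 with cyclin E, phosphorylate the pocket proteins and free the activator E2Fs. CHK1, the kinase that prexasertib (Prex) inhibits, restrains CDK activity in S and G2 phase, and its own gene CHEK1 is an E2F target.

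The parental line OVCAR5 comes from an ovarian cancer, is BRCA wild type, and is p53 null. OVCAR5R was derived from it by selection in rising concentrations of Prex up to 3 µM, was kept at 2 µM, and was taken off the drug for at least 4 days ahead of experiments. Triplicate cultures of each line gave the total RNA that was sequenced, so each group held 3 libraries, named replicates 1, 2, and 3, and values are listed in that order. The labels do not say whether OVCAR5R is a clone, and culture history, drug selection, and line cannot be told apart with 1 resistant line.

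The deposited signal is a normalized value on a linear scale, not corrected for transcript length. In each library 62.4% to 66.4% of the values were near whole multiples of a step, which was taken as 1 estimated read. This gave 35.8 to 41.3 M estimated reads on the listed genes in OVCAR5 and 50.3 to 55.1 M in OVCAR5R, and these depths are approximate. Among the members, the fewest estimated reads behind a value in a library were 409 (E2F2). OVCAR5 replicate 2 stood apart from the other libraries. Its values of the epithelial genes EPCAM and KRT19 were 597 and 1341, against 15.9 and 9.99 in OVCAR5 replicate 1 and 11.9 and 10.7 in OVCAR5 replicate 3. Of 9 epithelial markers 7 were in the table and tested, and the median of their log2 values relative to the OVCAR5 mean was 2.25 in this library and between -1.34 and -0.63 in the other 5. Of the leukocyte markers, CD14 and CD68 were analyzed, and CD14 reached 20.2 in this library against 2.02 to 11.9 elsewhere, while CD68 was at 40.7 to 68.3 in OVCAR5 and 70.4 to 72.8 in OVCAR5R, without overlap. Of the endothelial and fibroblast markers, COL1A1 was at 1.29 to 15.2 and PDGFRB at 0.14 to 1.90. The ovarian lineage marker PAX8 was at 8.38 to 11.4 in OVCAR5 and 4.38 to 5.66 in OVCAR5R, WT1 was under 1 throughout, and MSLN was at 0.24 to 6.11. OVCAR5 replicate 2 also held the lowest value of 6 of the 10 genes, while it held the lowest value of 26.8% of all genes tested. Log2 fold changes and list medians that turn on it are therefore also given without it, and the part of the marker differences in these results was not tested.

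The promoters of these genes show which of them carry an E2F element at their own start site, a feature through which E2Fs are known to control their own family. The windows came from RefSeq on GRCh38.p14 and ran from 250 bases before to 50 bases after a start site. A total of 9 members had a window, 11 windows in all. The letters searched on either strand were TTTCCCGC, TTTGGCGC, TTTGCCGC, and TTTCGCGC. At least 1 of them was present in the windows of 5 of the 9 members, namely E2F1, E2F2, E2F3, RBL1, and TFDP1. The same letters were present in 3.31% of all 35116 windows and in 6.88% of the 9023 tested genes that had a window. For the 5 genes with a match, and for RBL2, the gene without overlap, 60 bases are printed 5′ to 3′ on the strand of the gene, with matches in capitals.
E2F1 (chr20:33686379-33686438, minus strand): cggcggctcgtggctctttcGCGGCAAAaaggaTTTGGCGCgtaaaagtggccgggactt
E2F2 (chr1:23531242-23531301, minus strand): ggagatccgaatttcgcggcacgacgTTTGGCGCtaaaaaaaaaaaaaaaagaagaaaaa
E2F3 (chr6:20401800-20401859, plus strand): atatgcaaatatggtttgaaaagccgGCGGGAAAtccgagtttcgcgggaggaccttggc
RBL1 (chr20:37095985-37096044, minus strand): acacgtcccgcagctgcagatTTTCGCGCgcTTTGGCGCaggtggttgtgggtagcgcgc
TFDP1 (chr13:113584607-113584666, plus strand): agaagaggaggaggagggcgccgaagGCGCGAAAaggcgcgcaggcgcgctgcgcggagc
RBL2 (chr16:53434411-53434470, plus strand): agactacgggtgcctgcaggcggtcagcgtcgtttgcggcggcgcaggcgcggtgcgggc

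E2F1 carried a match on each strand, beginning 33 and 20 bases before the start site. RBL1, which encodes p107, carried 2 matches on its own strand at 26 and 16 bases before the start. The match lay 42 bases before the start in E2F2, 53 bases in 1 of the 2 windows of E2F3, and 120 bases in TFDP1. The windows of E2F4, E2F7, RB1, and RBL2 did not hold these letters. The windows of RB1 and RBL2 lie inside the genes, so the search did not cover their annotated first bases. The same search found a match in 19 of 34 genes of a list of G1/S target genes (55.9%) and in 3 of 25 genes of a list of G2/M genes (12%). The cell cycle homology element TTTGAA, through which the MuvB complexes with p107 or p130 are known to act, was also searched on either strand. It was present in 18 of the 25 G2/M genes (72%) and in 2 of the 34 G1/S genes (5.88%). Of all windows 15.2% held it, as did 13.4% of the 9023 tested genes that had a window. It was present in 2 of the 9 members, E2F3 and RBL2. A match is only a match of letters, and no binding was measured.

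The activator E2Fs drive S phase genes and are released when RB is phosphorylated. E2F1 had normalized values of 61.9, 75.6, and 79.1 in OVCAR5 and 76.4, 77.6, and 76.9 in OVCAR5R. The OVCAR5R cultures were close together (SD of 0.598), inside the range of the OVCAR5 cultures, of which replicate 1 was the low one. Its log2 fold change was 0.10 (standard error, SE, of 0.19, limma adjusted p = 0.892). E2F2 had values of 11.4, 11.8, and 12.2 in OVCAR5 and 13.1, 10.5, and 17.6 in OVCAR5R, where replicate 2 was below all OVCAR5 libraries and replicates 1 and 3 were above them. E2F2 differed by 0.17 on the log2 scale (SE 0.25, limma adjusted p = 0.852), and this became -0.013 without OVCAR5R replicate 3. E2F3 had values of 37.1, 19.7, and 44.1 in OVCAR5 and 39.0, 36.8, and 42.7 in OVCAR5R. All OVCAR5R libraries of E2F3 lay above OVCAR5 replicate 2 and below OVCAR5 replicate 3. The log2 fold change of E2F3 was 0.30 (SE 0.30, limma adjusted p = 0.772) with all libraries and -0.037 without OVCAR5 replicate 2.

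**Figure D1:**
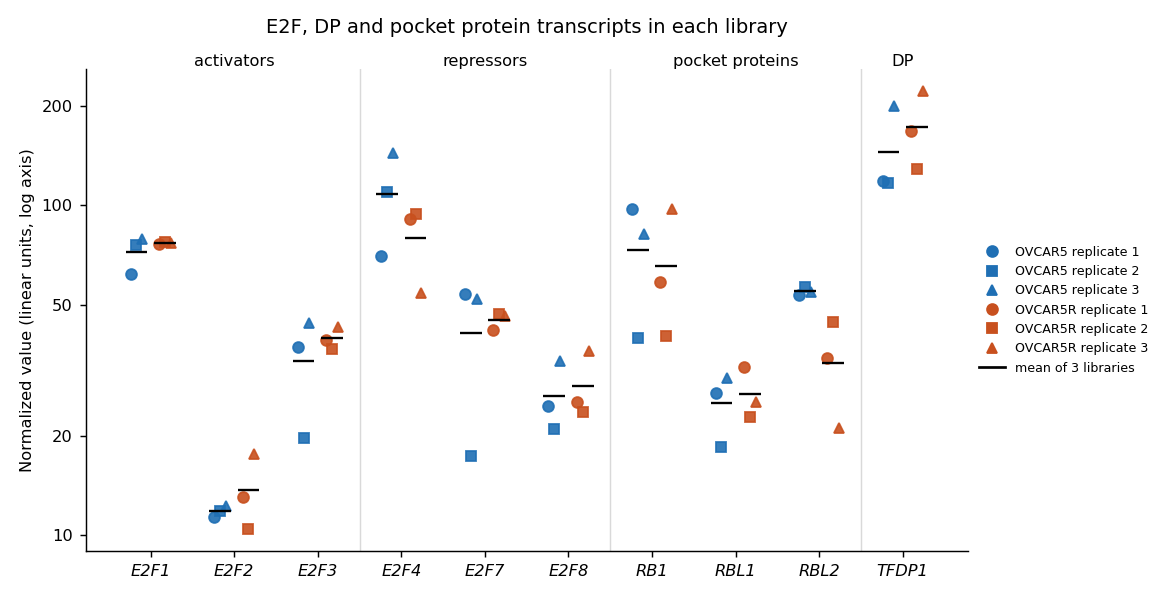
Normalized value of each of the 10 genes (linear units on a log axis) in the 3 OVCAR5 libraries (blue) and the 3 OVCAR5R libraries (orange), with symbols for replicates 1 to 3 and a bar for the mean. RBL2 is the gene without overlap, at 53.3 to 56.5 in OVCAR5 and 21.2 to 44.2 in OVCAR5R, and OVCAR5 replicate 2 (blue square) is the lowest library for E2F3, E2F7, E2F8, RB1, RBL1, and TFDP1.

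The repressor E2Fs fall into E2F4, which acts mainly as a repressor in complex with pocket proteins, and the atypical E2F7 and E2F8, which repress late in S phase without pocket or DP proteins. E2F4 had values of 70.1, 109, and 143 in OVCAR5 and 90.5, 94.1, and 54.2 in OVCAR5R. OVCAR5R replicate 3 was below every other library and OVCAR5 replicate 3 was above every other library, while the remaining 4 libraries mixed. The log2 fold change of E2F4 was -0.41 (SE 0.32, limma adjusted p = 0.686), and it was -0.16 without OVCAR5R replicate 3 and -0.69 without OVCAR5 replicate 1.

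E2F7 had values of 53.9, 17.4, and 52.1 in OVCAR5 and 42.0, 46.8, and 46.2 in OVCAR5R. The value in OVCAR5 replicate 2 was below every other library, and the remaining OVCAR5 libraries were above every OVCAR5R library. The sign of its log2 fold change therefore depended on 1 culture, at 0.29 (SE 0.41, limma adjusted p = 0.845) with all libraries and -0.23 (limma adjusted p = 0.715) without OVCAR5 replicate 2. E2F8 had values of 24.7, 20.9, and 33.7 in OVCAR5 and 25.4, 23.6, and 36.2 in OVCAR5R, so that replicate 3 was the highest in both lines and the ranges covered each other. Its log2 fold change was 0.10 (SE 0.26, limma adjusted p = 0.928), and -0.047 without OVCAR5 replicate 2.

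The pocket protein genes held the lowest log2 fold change of the 10 genes, in RBL2, and a wide spread between cultures, in RB1. RBL2 encodes p130, the pocket protein that is abundant in quiescent cells and recruits E2F4 and the MuvB core to form the DREAM repressor complex. RBL2 had normalized values of 53.3, 56.5, and 54.7 in OVCAR5 and 34.5, 44.2, and 21.2 in OVCAR5R. Every OVCAR5R culture was below every OVCAR5 culture. The OVCAR5 cultures were close together (SD of 0.04 on the log2 scale), and the OVCAR5R cultures were far apart (SD of 0.52). The means were 54.8 ± 1.58 and 33.3 ± 11.6 (SD, n = 3 each). On the log2 scale the difference was -0.76 (95% interval -1.40 to -0.12), or 0.590-fold. The unadjusted p was 0.0253 and the adjusted p over all genes tested was 0.401 (limma). An exact two-sided permutation test gave p = 0.1, the smallest that 3 against 3 libraries allow.

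This difference is not rare among all genes. Of the 10 genes 1 was lower in OVCAR5R without overlap, and so were 8.18% of all genes tested. None of the 10 was higher without overlap, against 8.4% of all genes tested. At an unadjusted p under 0.05, 1 of the 10 genes was past the threshold, against 10.4% of all genes tested. At an adjusted p under 0.05 the count was 0 of 10, against 0.119% of all genes tested (14 genes, limma). The share of the members is near the background in each of these counts. RBL2 kept its direction in all 13 alternative settings, with log2 fold changes between -0.99 and -0.48 and adjusted p-values from limma between 0.351 and 0.734. The value nearest to 0 came without OVCAR5R replicate 3, and without OVCAR5 replicate 2 it was -0.74.

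RB1, which encodes the retinoblastoma protein, had values of 97.6, 39.6, and 81.6 in OVCAR5 and 58.4, 40.1, and 97.2 in OVCAR5R. Replicate 2 was the low one in each line, and OVCAR5 replicate 1 and OVCAR5R replicate 3 were high and nearly equal, so the cultures of a line differed more than the lines did. Its log2 fold change was -0.15 with a 95% interval from -1.11 to 0.80 (limma adjusted p = 0.929). The value was -0.54 without OVCAR5 replicate 2 and 0.14 without OVCAR5R replicate 2. RBL1 had values of 27.1, 18.5, and 30.0 in OVCAR5 and 32.3, 22.8, and 25.3 in OVCAR5R, with OVCAR5 replicate 2 the lowest and OVCAR5R replicate 1 the highest. The log2 fold change of RBL1 was 0.10 (SE 0.26, limma adjusted p = 0.928) and -0.10 without OVCAR5 replicate 2.

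TFDP1 encodes DP1, a DP protein that partners the E2Fs that are not atypical. It had values of 118, 117, and 200 in OVCAR5 and 167, 129, and 221 in OVCAR5R, with replicate 3 the highest in each line. The log2 fold change was 0.26 (SE 0.29, limma adjusted p = 0.795). TFDP1 was above 0 in all 13 alternative settings, between 0.06 and 0.51, and none of these values passed the test. The family genes outside the 10, E2F5, E2F6, and TFDP2, had log2 fold changes of -0.09, -0.01, and 0.22, and their libraries overlapped.

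**Figure D2:**
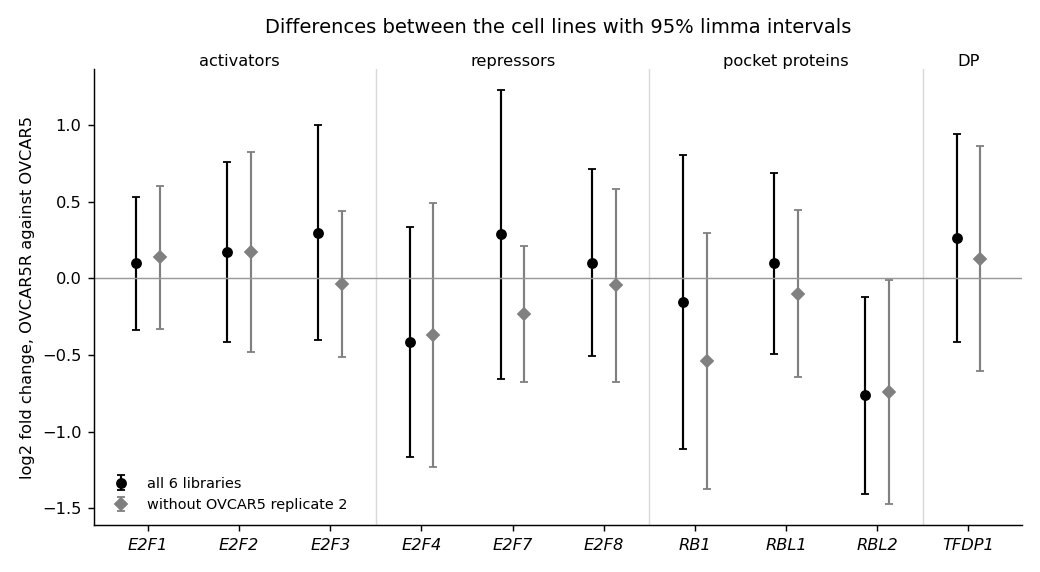
Log2 fold change of the 10 genes in OVCAR5R against OVCAR5 with 95% intervals from limma, for all 6 libraries (black) and without OVCAR5 replicate 2 (grey). RBL2 is the gene whose interval stays below 0 in both fits, while E2F3, E2F7, E2F8, and RBL1 change sign between the fits. In fits not shown, without OVCAR5 replicate 1, OVCAR5 replicate 3, or OVCAR5R replicate 3, the RBL2 interval includes 0.

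By the mean of their log2 values, as in all counts by mean below, 7 of the 10 genes were higher in OVCAR5R with all libraries and 3 of 10 without OVCAR5 replicate 2, and 6 of 10 without OVCAR5R replicate 1. Over all genes tested 49.2% were higher and the median log2 fold change was -0.01. The intervals show what these cultures could resolve. For E2F1, the most precisely measured of the 10, the 95% interval of the log2 fold change ran from -0.33 to 0.53, and for E2F7 it ran from -0.66 to 1.23. A change of E2F1 by more than 1.45-fold upward or to less than 0.793-fold lay outside its interval. A p that misses the threshold does not show that these transcripts were alike.

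The members were also averaged by role, as log2 values relative to the mean of each gene over the 6 libraries. These averages are descriptions without a test. The activator E2Fs averaged -0.11, -0.29, and 0.12 in OVCAR5 and 0.07, -0.05, and 0.25 in OVCAR5R. The ranges overlapped, and the difference between the lines was 0.19 with all libraries and 0.09 without OVCAR5 replicate 2. The repressor E2Fs averaged -0.02, -0.41, and 0.45 in OVCAR5 and -0.01, 0.03, and -0.04 in OVCAR5R. These averages were close together in OVCAR5R, in the middle of a wide OVCAR5 range, but they joined unlike genes. In OVCAR5R replicate 3, E2F4 was at -0.71, E2F7 at 0.18, and E2F8 at 0.42. The difference between the lines was -0.0090 with all libraries and -0.22 without OVCAR5 replicate 2. By part it was -0.41 for E2F4 and 0.19 for the average of E2F7 and E2F8. Without OVCAR5 replicate 2 these were -0.37 and -0.14. The pocket proteins averaged 0.34, -0.24, and 0.31 in OVCAR5 and -0.03, -0.25, and -0.13 in OVCAR5R, with OVCAR5 replicate 2 at the level of the OVCAR5R libraries. Here the difference was -0.27, and -0.46 without OVCAR5 replicate 2. The activator average minus the pocket protein average was -0.45, -0.05, and -0.19 in OVCAR5 and 0.10, 0.21, and 0.38 in OVCAR5R. On this balance of 6 genes the 2 lines did not overlap. Of the genes in it, only RBL2 was without overlap by itself. RBL2 was at 0.34, 0.42, and 0.38 in OVCAR5 and -0.27, 0.08, and -0.95 in OVCAR5R. The part of RBL2 in this separation was not tested. Among single genes, 8.4% of those tested were higher in OVCAR5R without overlap, and the share among balances of 6 genes was not computed. The activator average minus the repressor average was -0.09, 0.12, and -0.33 in OVCAR5 and 0.08, -0.08, and 0.29 in OVCAR5R, and on this balance the lines overlapped.

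**Figure D3:**
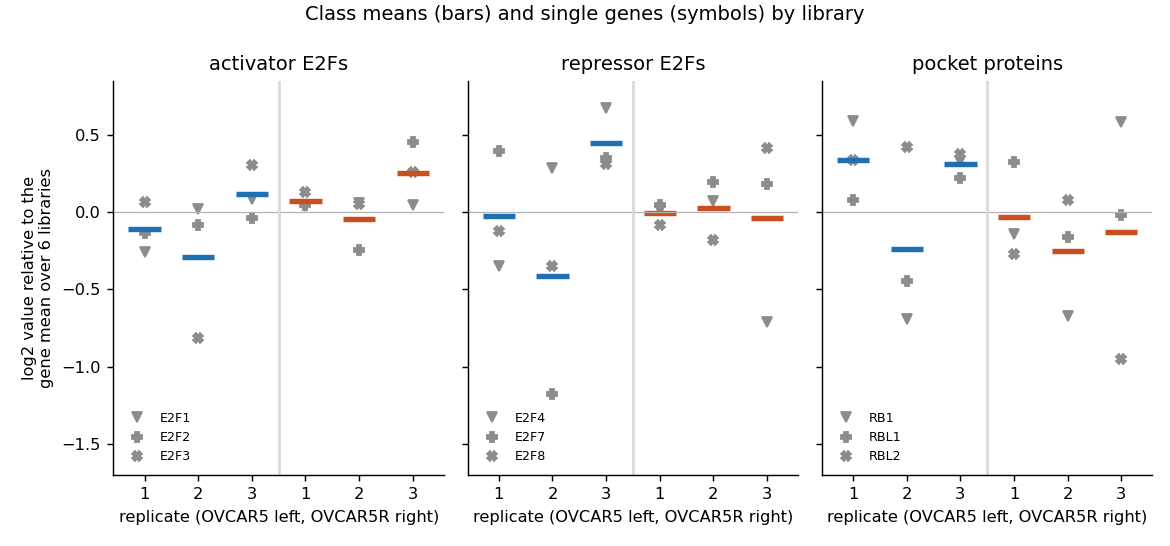
Mean log2 value of the activator E2Fs, the repressor E2Fs, and the pocket proteins in each library (coloured bars, OVCAR5 blue and OVCAR5R orange), relative to the mean of each gene over the 6 libraries, with the single genes as grey symbols. The pocket protein bars of OVCAR5 replicates 1 and 3 are at 0.34 and 0.31 and the OVCAR5R bars lie between -0.25 and -0.03, while OVCAR5 replicate 2 is the lowest OVCAR5 library in all 3 classes.

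RBL2 and E2F4 both lie on chromosome 16, RBL2 from 53433977 to 53491649 and E2F4 from 67192169 to 67198918 (plus strand each, GENCODE 29 on GRCh38). Genes around them were lower in OVCAR5R as well. Over the 61 tested genes within 10 Mb of RBL2 the median log2 fold change was -0.36, and 86.9% of them were lower by their mean. In the OVCAR5R libraries the median of these neighbours, relative to the OVCAR5 mean, was -0.11, 0.03, and -0.96, and RBL2 itself was at -0.65, -0.30, and -1.33. RBL2 was thus below its neighbours in each OVCAR5R culture, and 13.1% of the neighbours had a lower log2 fold change than RBL2. The 129 genes within 10 Mb of E2F4 had a median of -0.46, and E2F4 was at -0.41. Their medians in the OVCAR5R libraries were -0.25, -0.11, and -0.96, beside -0.19, -0.13, and -0.92 for E2F4. The values of E2F4 thus followed those of its neighbours in all 3 OVCAR5R cultures. The part of a shift of the whole region in the values of RBL2 and E2F4 was not tested.

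RB1 and TFDP1 lie on chromosome 13, RB1 from 48303726 to 48599436 and TFDP1 from 113584721 to 113641470 (plus strand each). The 64 neighbours of RB1 had a median of -0.10, and their medians by library, 0.23, -0.32, and 0.17 in OVCAR5 and -0.10, -0.23, and 0.09 in OVCAR5R, were low and high in the same libraries as RB1. The 33 neighbours of TFDP1 had a median of -0.04. For the remaining members, on chromosomes 1, 6, 11, 12, and 20, the neighbours had medians between 0.03 and 0.11.

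**Figure D4:**
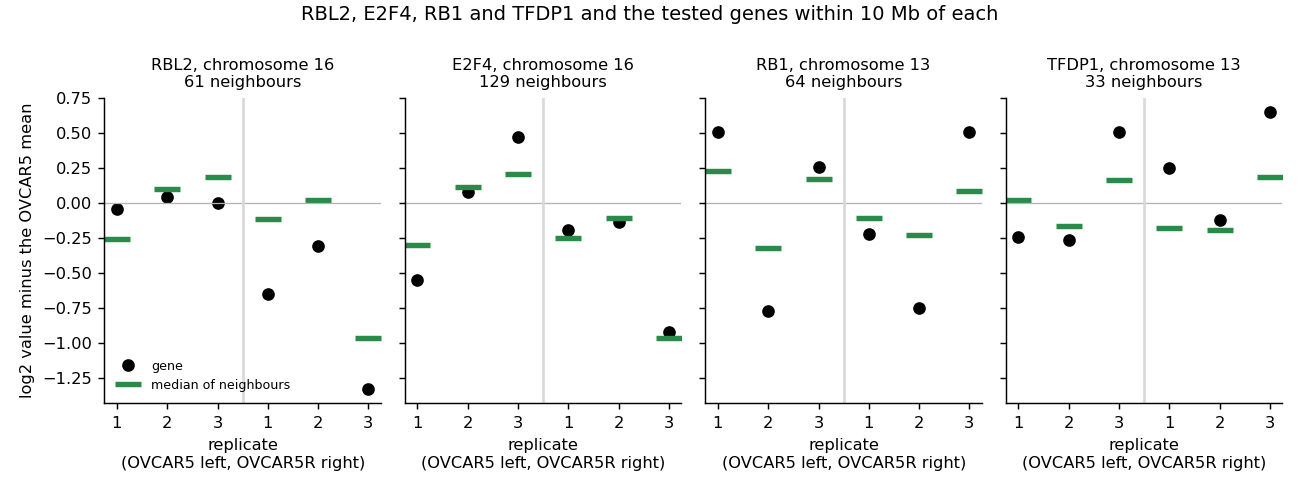
Log2 value minus the OVCAR5 mean in each library for RBL2, E2F4, RB1, and TFDP1 (black points), and the median of all tested genes within 10 Mb on the same chromosome (green bars). Both chromosome 16 neighbourhoods are at -0.96 in OVCAR5R replicate 3, where RBL2 is at -1.33 and E2F4 at -0.92, and RBL2 lies below its neighbours in all 3 OVCAR5R libraries.

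Levels were compared between genes per kb of the longest annotated transcript, since the deposited values are not corrected for length. In OVCAR5 the order of the level per kb was TFDP1 at 54.7, E2F4 at 51.4, E2F1 at 28.8, RB1 at 15.2, RBL2 at 11.2, E2F8 at 7.51, E2F7 at 7.16, E2F3 at 7.08, RBL1 at 4.44, and E2F2 at 2.28. The ranges of the cultures overlapped between TFDP1 and E2F4, between RB1 and RBL2, and between each neighbouring pair from E2F8 to RBL1. In OVCAR5R the order per kb was TFDP1 at 65.1, E2F4 at 38.0, E2F1 at 30.7, RB1 at 13.6, E2F3 at 8.32, E2F8 at 8.07, E2F7 at 7.84, RBL2 at 6.79, RBL1 at 4.72, and E2F2 at 2.64. RBL2 moved from rank 5 in OVCAR5 to rank 8 in OVCAR5R, where its range overlapped those of E2F7 and RBL1 beside it. In both lines E2F1 was the most abundant activator per kb and E2F2 the least abundant gene of the 10. The transcript that these cells use was not measured, so the per kb scale is approximate.

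Of 10 genes of pocket protein kinases, their cyclins, and the CDK-activating kinase, 8 were higher by their means in OVCAR5R. None passed an adjusted p of 0.05. Over the 10 cyclin and kinase genes tested the median log2 fold change was 0.20, and 3 were higher without overlap (30%, beside 8.4% of all genes). The count by mean was 7 without OVCAR5 replicate 2, with a median of 0.18, and 6 without OVCAR5R replicate 1. Relative to the OVCAR5 mean, the list median was -0.08, -0.13, and 0.29 in OVCAR5 and 0.57, -0.01, and 0.25 in OVCAR5R. OVCAR5 replicate 3 thus lay above OVCAR5R replicates 2 and 3. CCNE1, which encodes the cyclin E1 that activates CDK2, had values of 4.82, 5.56, and 7.88 in OVCAR5 and 9.69, 9.47, and 12.9 in OVCAR5R. Its log2 fold change was 0.73 (SE 0.28, limma adjusted p = 0.419). CDK2 had values of 56.7, 54.1, and 74.8 in OVCAR5 and 93.0, 91.6, and 81.2 in OVCAR5R, with a log2 fold change of 0.52 (limma adjusted p = 0.436). MNAT1, a subunit of the CDK-activating kinase, had a log2 fold change of 0.56 (limma adjusted p = 0.359) while its 102 neighbours on chromosome 14 had a median of 0.61. CCND1, the cyclin D1 gene, overlapped between the lines at 445 to 830 in OVCAR5 and 564 to 922 in OVCAR5R. CDK4, CDK6, and CCNH had log2 fold changes of 0.31, 0.013, and 0.010. The genes lower by their mean were CDK7 (-0.27) and CCND3 (-0.04), and their libraries overlapped.

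The genes of CDK inhibitors, which keep pocket proteins active, had the reverse sign. All 5 of the 7 listed genes that could be tested were lower by their mean in OVCAR5R, with a median of -0.47, and none was without overlap or past the test. Without OVCAR5 replicate 2 the median was -0.30 and 1 of the 5 was higher. Relative to the OVCAR5 mean, the list median was 0.31, 0.19, and -0.49 in OVCAR5 and -0.47, -0.31, and -0.40 in OVCAR5R. The lowest library was thus OVCAR5 replicate 3. CDKN1B, which encodes p27, had values of 48.2, 39.2, and 25.9 in OVCAR5 and 22.3, 29.4, and 27.5 in OVCAR5R, a log2 fold change of -0.47 (limma adjusted p = 0.588). CDKN1A, which encodes p21, was at 14.3 to 51.9 in OVCAR5 and 22.7 to 47.8 in OVCAR5R (log2 fold change -0.10). CDKN2A, which encodes the CDK4 and CDK6 inhibitor p16, was listed at 0 in all OVCAR5 libraries and in OVCAR5R replicate 2, at 0.019 in OVCAR5R replicate 3, and at 2.75 in OVCAR5R replicate 1. CDKN2B was likewise at 0 in OVCAR5 and at 0.41, 0, and 0.037 in OVCAR5R. OVCAR5R replicate 1 had the fewest genes at 0, 8 against 31 to 230 in the other libraries, and 19 genes were above 0 in it alone.

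The MuvB core forms DREAM with p130 and E2F4 and later activates G2/M genes with B-MYB and FOXM1. Of 9 genes of this group 6 were higher by their mean, with a median log2 fold change of 0.21, or 0.014 without OVCAR5 replicate 2. LIN52, the subunit that contacts the pocket protein, was higher without overlap at 24.0 to 25.7 in OVCAR5 and 30.0 to 48.0 in OVCAR5R (log2 fold change 0.70, limma adjusted p = 0.372), and its 108 neighbours on chromosome 14 had a median of 0.49. MYBL2, which encodes B-MYB, was also higher without overlap, at 103 to 131 in OVCAR5 and 142 to 158 in OVCAR5R (log2 fold change 0.35, limma adjusted p = 0.557). FOXM1 overlapped between the lines, with a log2 fold change of 0.25. LIN54, the DNA-binding subunit, had the lowest log2 fold change of this group, -0.52, and overlapped. The 12 corepressor genes, such as HDAC1, SIN3B, and DNMT1, divided into 6 higher and 6 lower with a median of 0.01, and all 12 overlapped. Without OVCAR5 replicate 2, 4 of them were higher and the median was -0.065. The 8 genes of E2F and pocket protein turnover, such as SKP2 and CCNF, were higher by their mean for 5 genes with a median of 0.05, or for 3 genes with a median of -0.038 without OVCAR5 replicate 2, and all 8 overlapped.

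The G1/S genes that E2Fs activate were mostly higher by their mean in OVCAR5R, although no gene passed the test. Of 39 genes tested 30 were higher by their mean, and the median log2 fold change was 0.25, beside -0.01 for all genes. The count was again 30 without OVCAR5 replicate 2, with a median of 0.20, and 30 without OVCAR5R replicate 1. A total of 6 genes were higher without overlap (15.4%, beside 8.4% of all genes) and 1 was lower (2.56%, beside 8.18%). The median of the list relative to the OVCAR5 mean was -0.16, -0.09, and 0.29 in OVCAR5 and 0.23, 0.31, and 0.23 in OVCAR5R, so OVCAR5 replicate 3 lay within the range of the OVCAR5R cultures. This list was drawn up with earlier results on replication and repair genes of these libraries in view, so its direction is not independent evidence.

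The genes with the highest log2 fold changes on the G1/S list were CCNE1, POLE2 (0.64), CDC25A (0.62), and CHAF1B (0.62). The 72 neighbours of POLE2 on chromosome 14 had a median of 0.63. CDC25A, the phosphatase that activates CDK2, had values of 19.7, 18.9, and 37.2 in OVCAR5 and 40.8, 32.1, and 40.5 in OVCAR5R, overlapping only through OVCAR5 replicate 3. The lowest were CDC45 (-1.14), MCM5 (-0.89), CDT1 (-0.73), and GINS2 (-0.60), all of which encode factors of origin licensing or firing. Their libraries overlapped, and the neighbours of these 4 genes on chromosomes 22 and 16 had medians of -0.39, -0.45, -0.59, and -0.59 in the same order. Other origin genes of the list were higher by their mean, such as ORC1 (0.58), GINS1 (0.58), and CDC6 (0.45), while MCM6 (-0.07) and MCM7 (-0.17) were lower. The low values were thus not shared by origin genes as a class. The lower gene without overlap was CCNA2, the cyclin A2 gene, named here after its values were seen. It had values of 70.8, 59.4, and 101 in OVCAR5 and 53.1, 44.0, and 57.3 in OVCAR5R (log2 fold change -0.55, limma adjusted p = 0.491), and its 40 neighbours on chromosome 4 had a median of -0.82. CHEK1 overlapped between the lines, with a log2 fold change of 0.27 (limma adjusted p = 0.749).

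The G2/M genes, which DREAM represses and B-MYB and FOXM1 activate, were higher by their mean for 24 of 30 genes, with a median log2 fold change of 0.28. Without OVCAR5 replicate 2 the count was 20 and the median 0.11, and without OVCAR5R replicate 1 the count was 21. Higher without overlap were 3 genes (10%, beside 8.4% of all genes), and 0 were lower (beside 8.18%). Relative to the OVCAR5 mean, the list median was -0.07, -0.27, and 0.36 in OVCAR5 and 0.50, 0.15, and 0.15 in OVCAR5R. OVCAR5 replicate 3 thus lay above OVCAR5R replicates 2 and 3. DLGAP5, a spindle assembly factor, had the highest log2 fold change of the list, with values of 125, 108, and 157 in OVCAR5 and 238, 219, and 230 in OVCAR5R (0.83, limma adjusted p = 0.270), and its 94 neighbours on chromosome 14 had a median of 0.58. TTK, a spindle checkpoint kinase, was at 36.7 to 54.5 in OVCAR5 and 58.6 to 79.7 in OVCAR5R, with a log2 fold change of 0.53, and its 51 neighbours on chromosome 6 had a median of 0.01. CENPE had the lowest log2 fold change of the list (-0.74, limma adjusted p = 0.545). Its values were 106, 44.7, and 115 in OVCAR5 and 65.0, 35.4, and 49.8 in OVCAR5R, and they overlapped. CCNB1, the cyclin B1 gene, overlapped between the lines, with values of 175, 193, and 289 in OVCAR5 and 297, 189, and 131 in OVCAR5R (log2 fold change -0.14, limma adjusted p = 0.920). The proapoptotic E2F1 targets did not share this sign, with 4 of 11 higher by their mean and a median of -0.19, or 0.018 without OVCAR5 replicate 2. BIK, a BH3-only gene, had the lowest log2 fold change on that list, with values of 20.9, 27.6, and 18.9 in OVCAR5 and 4.98, 19.5, and 7.23 in OVCAR5R (-1.21, limma adjusted p = 0.401).

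**Figure D5:**
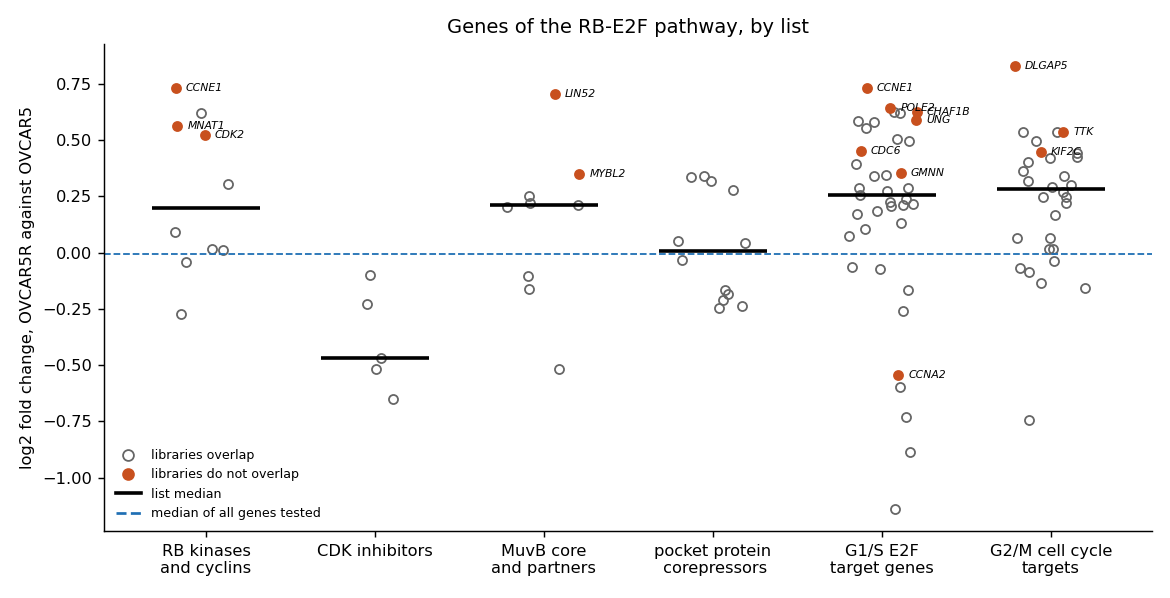
Log2 fold change in OVCAR5R against OVCAR5 for the tested genes of 6 lists of the RB-E2F pathway, with genes whose libraries do not overlap filled and named, list medians as black bars, and the median of all genes tested (-0.01) as a dashed line. The medians are 0.20 for RB kinases and cyclins, -0.47 for CDK inhibitors, 0.21 for MuvB core and partners, 0.01 for corepressors, 0.25 for G1/S genes, and 0.28 for G2/M genes.

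The genes whose pattern over the 6 libraries was most like that of E2F1 were NAP1L4, RWDD3, and MBD3, with root mean square differences of the log2 values of 0.02, 0.02, and 0.04 after each gene was centred on its own mean. E2F1 itself deviated from its mean by 0.12 on this measure, so nearly flat genes resembled it. For RB1, which deviated by 0.54, the most like genes were STAG1, MICAL3, and MZT1, with differences of 0.16, 0.17, and 0.18. STAG1 had values of 74.4, 39.6, and 73.9 in OVCAR5 and 51.3, 37.3, and 71.1 in OVCAR5R, low in replicate 2 of both lines as RB1 was.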

How the data were processed

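Total RNA from 3 cultures each of OVCAR5 and OVCAR5R was sequenced, and the authors deposited 1 table of normalized signal per gene symbol and culture on a linear scale. Per the paper's methods the datasets were quartile normalized and log-transformed before analysis, and the deposited values are not on a log scale. The submitters' processing notes name the build hg38. The aligner, counter, and annotation are not given in the sources used here. The values behave as estimated reads scaled by 1 factor per library (35.8 to 55.1 M estimated reads), so tests for counts were not used.

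Rows were read as log2(value + 1), a scale that understates changes of low genes. A gene entered the test if 3 or more libraries had a value of 1 or more. The test was limma 3.58.1 in R 4.3.3 (lmFit, eBayes with trend, two-sided, no covariates), with Benjamini-Hochberg adjustment over 11766 genes at 0.05, and it was checked on simulated data. Exact permutation tests of single genes cannot go under 0.1 here. Where cultures are not independent, p-values measure only their spread. Gene positions and transcript lengths came from GENCODE 29, in which 12233 of 12305 symbols were found. Promoter windows came from RefSeq on GRCh38.p14 by symbol. Figures used matplotlib 3.10.9 in Python 3.11.15.

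The members and all gene lists were chosen with earlier results of these data known. Named genes are the 10 members, in each list up to 4 genes from either end of the log2 fold changes, a few regulators (CCNB1, CCND1, CDKN2A, CDK2, CCNE1, MYBL2, FOXM1), and the 3 genes most like E2F1 and RB1. A gene of the G1/S list is not reported here and was left out of it. CCNA2 and CDK4 fall outside this rule. CCNA2, CHEK1, and examples in list descriptions were chosen with their values in view. So were the origin genes named beside the lowest of the G1/S list. Alternatives tried were quantile normalization, no trend, library weights, no filter or a minimum of 10, a 0.1 pseudocount, a block for the replicate number, and each library left out in turn.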

Additional observations from a re-analysis of the deposited data

How the results depend on the processing

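Each log2 fold change was recomputed under 13 alternative settings, and in none did any of the 10 genes reach an adjusted p of 0.05 (limma). RBL2 and E2F4 stayed negative and TFDP1 stayed positive in all 13. With library weights RBL1 was at -0.040, the only sign change that did not come from leaving out a library. With a library left out, the log2 fold change ranged from -0.0063 to 0.17 for E2F1, -0.013 to 0.34 for E2F2, -0.037 to 0.52 for E2F3, -0.69 to -0.16 for E2F4, -0.23 to 0.56 for E2F7, -0.081 to 0.28 for E2F8, -0.54 to 0.14 for RB1, -0.10 to 0.23 for RBL1, -0.99 to -0.48 for RBL2, and 0.06 to 0.51 for TFDP1. The sign changed for E2F3 (-0.037), E2F7 (-0.23), E2F8 (-0.047), and RBL1 (-0.10) without OVCAR5 replicate 2, for RB1 (0.10) and E2F1 (-0.0063) without OVCAR5 replicate 1, for E2F2 (-0.013) and E2F8 (-0.081) without OVCAR5R replicate 3, for RB1 (0.14) without OVCAR5R replicate 2, and for RBL1 (-0.039) without OVCAR5R replicate 1. Members without overlap numbered 2 without OVCAR5 replicate 2, when E2F7 joined RBL2, an alternative chosen after seeing the data. Fewer libraries make a lack of overlap easier to reach. The share of all genes tested was not computed in this setting, so this count cannot be set against a background. The median of the G1/S list ranged from 0.19 to 0.43 and that of the G2/M list from 0.11 to 0.46 with a library left out. The count of all genes past the threshold, 14, was 30 with library weights and 0 to 29 with a library left out, and the cause was not tested. With the replicate number as a block it was 5, and the replicate block left the log2 fold change of RBL2 at -0.76 (adjusted p = 0.390, limma) and changed no call of the 10 genes. Deviations of same-numbered libraries correlated at -0.0040, 0.18, and -0.12 across genes, and not every library correlated best with its own number, so the numbers were not taken to pair the cultures. With 3 cultures in each line, only differences that are large beside the spread between cultures could be resolved.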
